A study of Mus musculus with 22 samples.

Results

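Double mutant oocytes, which lack both RNAi and MILI slicing, were compared with oocytes that lack RNAi alone, so that the difference between them is what the loss of MILI slicing adds once RNAi is already gone. The comparison rests on 6 paired-end RNA-seq libraries of 22 samples in the series, 4 double mutants and 2 RNAi mutants, and a single piRNA mutant library is shown beside them as values. The libraries were chosen by genotype and by sequencing run and not by any measured value. All mice were on the C57BL/6 strain, and each library was made from RNA of fully grown germinal vesicle (GV) oocytes, the stage just before meiosis resumes.

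The double mutants were Mili-DAH/DAH, Dicer-SOM/SOM, and their 4 libraries came from mice aged 40, 35, 11 and 11 weeks (replicates 1o, 2o, 1 and 2). The RNAi mutants were Mili-DAH/WT, Dicer-SOM/SOM at 17 and 13 weeks (replicates 1 and 2), so they carried 1 copy of the Mili mutation themselves. The piRNA mutant was Mili-DAH/DAH, Dicer-SOM/WT at 16 weeks, and the 4 heterozygous controls were Mili-DAH/WT, Dicer-SOM/WT at 36, 38, 10 and 17 weeks (replicates 1o, 2o, 2 and 3). Every animal of this run therefore carried at least 1 mutant allele of each gene, and no library was fully wild type. Both are germline alleles, carried by all cells and not by the oocyte alone. The labels do not say whether libraries came from separate animals, so a p-value measures the spread between these libraries, and with 2 RNAi mutants that spread was also estimated from the other genotypes.

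MILI, encoded by Piwil2, is a PIWI protein that binds piRNAs, and it cuts RNAs that match them, which is how piRNA loci and retrotransposon transcripts are processed. The DAH allele changes the catalytic triad, so the protein is made but cannot slice. Mouse oocytes also have a strong RNAi pathway, in which an oocyte-specific short form of Dicer cuts long double-stranded RNA into siRNAs that direct AGO2 to matching transcripts. The SOM allele lacks the introns that hold the start of that short form and leaves full-length Dicer, which makes microRNAs. Piwil2 null and slicer mutant females are fertile while males are not, and oocytes are a tissue in which RNAi and piRNAs can meet on the same RNA.

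The genotypes were visible where the files allowed a check. Dicer1 was at 60.8, 58.0, 58.7 and 53.2 CPM (read counts relative to the normalized library size) in double mutants and at 53.8 and 62.1 CPM in RNAi mutants, against 502 to 763 CPM in controls and 596 CPM in the piRNA mutant. It was thus at 9.01% of the control mean in double mutants and at 9.06% in RNAi mutants, with a log2 fold change between the mutants of -0.01 ± 0.16 (SE, adjusted p = 0.9997). Piwil2, at 3.05 to 7.88 CPM in double mutants and 6.96 and 8.74 CPM in RNAi mutants, checks nothing, because DAH is a change of protein sequence. In bulk libraries such as these, fewer cells with a transcript and less of it per cell cannot be told apart. Total counts ran from 22928900 to 43540800 over the 11 paired-end libraries, and 3 counts, the floor used below, were worth 0.0677 to 0.13 CPM. The rRNA-bearing gene Gm42418 set libraries apart: it was at 4929 to 5503 CPM in double mutants 1o and 1 and at 4698 and 4945 CPM in the RNAi mutants, but at 439 and 557 CPM in double mutants 2 and 2o. The piRNA mutant had 294 CPM of it, and controls 1o, 2o, 2 and 3 had 4844, 374, 496 and 4086 CPM of it. In the libraries with over 1000 CPM of it, 71 genes were higher in double mutants and 2 were lower.

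Few genes passed the test between double and RNAi mutants, and nearly all of them were higher in double mutants. Of 20989 genes tested by edgeR's quasi-likelihood test, 65 (0.31%) were higher in double mutants at an adjusted p under 0.05 and 1 (0.00476%) was lower. The counts depend on the tool, the filter and 1 library: DESeq2 called 155 higher and 15 lower, 131 and 16 were called without a filter on low counts, and 25 and 0 without RNAi mutant 2. Before adjustment, 695 genes were higher and 309 lower at p under 0.05, together 4.78% of those tested. Of the higher genes, 20 overlap a 6.19 Mb stretch of chromosome 12 (mm10, chr12:17902389-24097246) that holds an array of duplicated genes, and 45 lie outside it on 17 chromosomes or scaffolds. All 65 had every double mutant library above both RNAi mutants, which held for 7.33% of all genes tested, while 7.05% had every double mutant below both. As the 65 were called on this difference, their lack of overlap is a description and no added support. The median log2 fold change of all genes tested was 0.01.

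**Figure D1:**
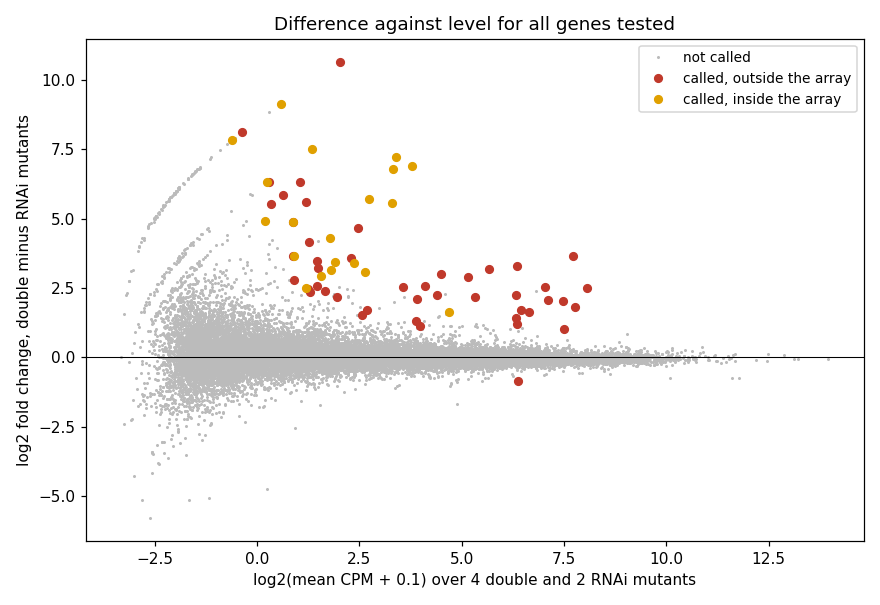
Each point is 1 of 20989 genes, placed by its log2(mean CPM + 0.1) over double and RNAi mutants and its fitted log2 fold change (double minus RNAi mutants). Red points are called genes outside the chromosome 12 array and yellow points those inside it; all but 1 lie above 0, and the rising lines of grey points at the left are genes at 0 counts in both RNAi mutants.

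Some of the called genes resemble other genes, and reads that match several places were divided among them when the files were made. The array holds many copies of the start of the coding sequence of Asap2, a gene for an ARF GTPase-activating protein that itself lies in the interval. The sequences show how alike the counted features are: the matching stretch of Asap2 (chr12:21111748-21270171, plus strand) and the whole of 3 called pseudogenes of 126 bases, Gm47437 (chr12:23800521-23800646, minus strand), Gm49330 (chr12:17993133-17993258, plus strand) and Gm47385 (chr12:23189273-23189398, minus strand). Sequences are the GENCODE M21 transcripts, and capitals mark bases that differ from Asap2.
Asap2: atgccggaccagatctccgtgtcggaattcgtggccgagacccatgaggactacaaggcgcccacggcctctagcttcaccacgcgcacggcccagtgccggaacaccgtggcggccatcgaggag
Gm47437: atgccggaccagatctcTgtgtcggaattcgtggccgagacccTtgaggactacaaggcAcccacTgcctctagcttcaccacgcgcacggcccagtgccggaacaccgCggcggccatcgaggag
Gm49330: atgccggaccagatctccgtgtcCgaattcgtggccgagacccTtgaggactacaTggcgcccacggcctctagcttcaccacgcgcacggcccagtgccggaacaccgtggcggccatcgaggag
Gm47385: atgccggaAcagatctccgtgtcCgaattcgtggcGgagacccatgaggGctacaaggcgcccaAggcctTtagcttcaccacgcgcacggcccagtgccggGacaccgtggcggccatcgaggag

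Gm47437 differs from Asap2 at 5 of these bases, Gm49330 at 3 and Gm47385 at 7. A stretch of at least 110 bases with at least 95% identity to Gm47437 was found in transcripts of 22 genes, Gm47437 and Asap2 among them, of which 21 overlap the interval. Of these, 16 were tested and 7 were called higher. Gm47385 is not among the 22, and 13 of the 20 genes called inside the interval lack the stretch. The stretch is thus shared by called and uncalled genes: Asap2 was at 134, 94.0, 85.7 and 74.1 CPM in double mutants and at 89.6 and 104 CPM in RNAi mutants, with a log2 fold change of 0.00 and an adjusted p of 0.9997. A pair of called defensin pseudogenes on chromosome 8 is closer still, so their counts are not independent. Defa-ps8 (chr8:21270693-21271997, plus strand) and Gm15313 (chr8:21639071-21640378, plus strand) have the transcripts below, and capitals mark the 3 bases of Gm15313 that Defa-ps8 lacks in the alignment.
Defa-ps8: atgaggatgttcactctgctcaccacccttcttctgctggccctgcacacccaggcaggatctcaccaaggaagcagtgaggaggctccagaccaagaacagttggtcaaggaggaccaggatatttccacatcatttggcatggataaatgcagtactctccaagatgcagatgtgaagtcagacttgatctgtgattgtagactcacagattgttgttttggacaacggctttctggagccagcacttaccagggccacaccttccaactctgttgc
Gm15313: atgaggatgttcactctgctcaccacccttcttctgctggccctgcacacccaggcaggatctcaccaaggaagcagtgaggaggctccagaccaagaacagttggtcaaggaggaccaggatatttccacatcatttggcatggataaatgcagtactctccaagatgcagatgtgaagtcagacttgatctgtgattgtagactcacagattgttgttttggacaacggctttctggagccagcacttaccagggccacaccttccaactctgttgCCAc

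Outside the array, the highest levels belonged to a pair of neighbouring genes on opposite strands of chromosome 12, far from the array. Gm17821 (chr12:67658527-67669276, minus strand), annotated as a processed pseudogene, was at 285, 376, 219 and 331 CPM in double mutants (1o, 2o, 1 and 2) and at 24.8 and 23.9 CPM in RNAi mutants. The groups were far apart, and the log2 fold change was 3.64 ± 0.28 (SE, adjusted p = 2.05e-05). Gm47432 (chr12:67651385-67658263, plus strand), a long noncoding RNA, was at 345, 451, 309 and 380 CPM in double mutants and at 64.6 and 67.1 CPM in RNAi mutants, a log2 fold change of 2.49 ± 0.25 (adjusted p = 0.000188). Both RNAi mutants fell within the control range of this run for Gm17821 (22.0 to 38.5 CPM) and Gm47432 (55.9 to 96.1 CPM). Values of both genes in the single-end run are given at the end, where all Dicer-SOM/SOM libraries were below all wild types for Gm47432. The piRNA mutant, at 72.5 CPM of Gm17821 and 133 CPM of Gm47432, was above every control and below every double mutant for both. Their annotated spans do not overlap, but the libraries were not stranded, so reads past an annotated end could not be assigned by strand.

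Other abundant long noncoding RNAs rose as well. Gm30262 (chr10:111599177-111611338) varied little within groups: 107, 118, 117 and 125 CPM in double mutants against 13.0 and 10.8 CPM in RNAi mutants. Its log2 fold change was 3.30 ± 0.20 (adjusted p = 1.65e-06), and controls were lower than all mutants, at 4.75 to 6.60 CPM, with the piRNA mutant at 15.8 CPM. AU020206 (chr7:75769038-75782099) was at 165, 223, 137 and 196 CPM in double mutants and at 30.4 and 31.9 CPM in RNAi mutants, with the piRNA mutant at 67.8 CPM and controls at 40.7 to 49.0 CPM. Here the RNAi mutants were below every control, and the log2 fold change of double minus RNAi mutants was 2.53 ± 0.21 (adjusted p = 2.89e-05). Gm30198 (chr12:102447328-102467609) rose by 2.16 ± 0.24, from 13.9 and 10.2 CPM in RNAi mutants to 50.5 to 58.2 CPM in double mutants, and none of its counts was a whole number in any library. Gm34045 showed a smaller change, from 45.1 and 30.2 CPM in RNAi mutants to 89.9 to 118 CPM in double mutants, a log2 fold change of 1.42 ± 0.25 (adjusted p = 0.026). Its piRNA mutant value, 103 CPM, lay within the range of the double mutants.

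Protein-coding genes made up 24 of the 45, and several have well-known roles outside any small RNA pathway. Cpox, which encodes the coproporphyrinogen oxidase of haem synthesis, was at 271, 262, 264 and 357 CPM in double mutants against 89.8 and 73.6 CPM in RNAi mutants (log2 fold change 1.82 ± 0.23, adjusted p = 0.00175). Syne1, the gene for the giant nuclear envelope protein nesprin-1, was at 130, 118, 111 and 74.7 CPM against 19.98 and 25.7 CPM (2.24 ± 0.26). Its counts were whole in every library. Atf7, a gene for a CREB-family transcription factor, was at 220, 243, 218 and 264 CPM against 52.9 and 64.0 CPM (2.01 ± 0.21), and the piRNA mutant at 207 CPM came close to the double mutants. Gm28047 overlaps Atf7 on the same strand, shares 1285 bases with it and rose with it, by 1.30 ± 0.24, so the 2 calls are not separate.

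Cdc14b, a gene for a cell-cycle phosphatase, was at 161, 203, 162 and 217 CPM in double mutants and at 50.7 and 39.0 CPM in RNAi mutants, and Hmmr, the gene for a spindle-associated hyaluronan receptor, was at 109, 105, 121 and 115 CPM against 38.7 and 31.2 CPM. Both RNAi mutants were above every control for each of them, since controls had 17.2 to 28.9 CPM of Cdc14b and 16.2 to 22.2 CPM of Hmmr. The piRNA mutant lay within those ranges, at 28.0 CPM and 18.2 CPM. The log2 fold changes of double minus RNAi mutants were 2.05 ± 0.23 for Cdc14b and 1.69 ± 0.18 for Hmmr. Bard1, the partner of BRCA1 in DNA repair, was at 119, 144, 106 and 149 CPM against 48.5 and 36.1 CPM (1.61 ± 0.21, adjusted p = 0.00241), and its piRNA mutant value, 81.3 CPM, was above the controls.

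**Figure D2:**
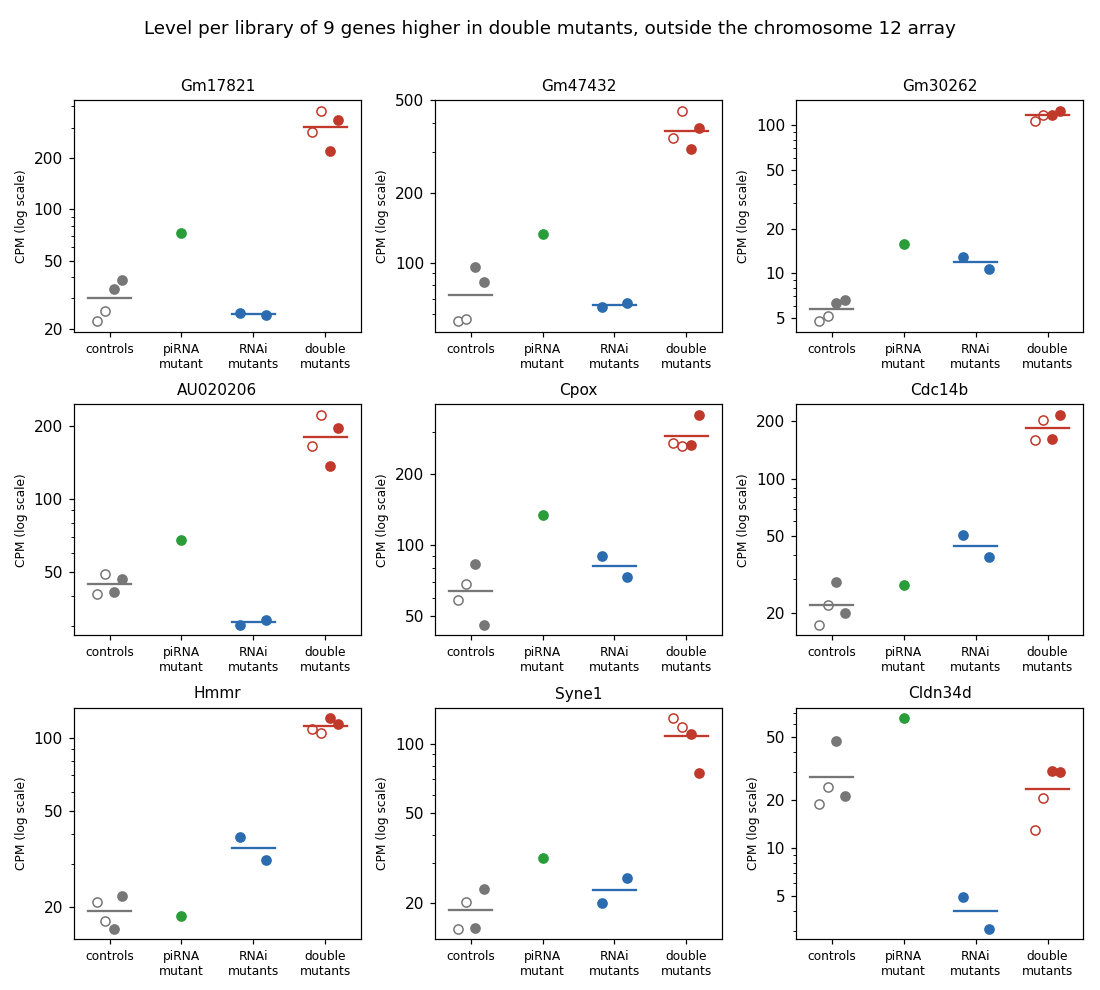
Points are libraries and the vertical axes are CPM on a log scale, with a line at each group mean; open points are the older animals (replicates 1o and 2o). In every panel the 4 double mutants lie above the 2 RNAi mutants. For Cldn34d they overlap the controls, and for Hmmr and Cdc14b the piRNA mutant lies within it.

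For 12 of the 45 genes both RNAi mutants were below every control, which held for 16.3% of all genes tested. In double mutants 9 of the 12 were above every control, such as AU020206 and Atf7, and for Cldn34d, Slc18b1 and Gm13346 the double mutants overlapped the controls. Cldn34d, an X-linked claudin family gene, was at 18.9 to 46.9 CPM in controls, 4.93 and 3.12 CPM in RNAi mutants, 13.0, 20.5, 30.6 and 30.0 CPM in double mutants and 65.2 CPM in the piRNA mutant. Its RNAi mutants were below the controls (RNAi mutants minus controls, log2 fold change -2.80), and its double mutants lay around the controls (-0.24). Slc18b1, which encodes a vesicular polyamine transporter, had the same order at lower levels: 1.83 to 3.36 CPM in controls, 0.303 and 0.895 CPM in RNAi mutants and 2.54 to 4.38 CPM in double mutants. Gm13346, too, had double mutants around the controls, at 15.4 to 24.3 CPM against 12.9 to 16.7 CPM. Of 11 alternative fits of double against RNAi mutants, Cldn34d passed in 10, Slc18b1 in 5 and Gm13346 in 8. None of them is among the genes, listed below, that passed in every fit. For the other 42 of the 45 genes every double mutant was above every control, against 13.1% of all genes tested. These comparisons with controls share the RNAi or double mutant libraries with the first one, on which the genes were called. They are given as values only.

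In the opposite class, both RNAi mutants were already above every control for 5 of the 45 genes (18.5% of all genes tested): Gm30262, Cdc14b, Hmmr, Psg20 and Cldn34c1. Psg20, of the pregnancy-specific glycoprotein family, was at 53.5 to 70.3 CPM in controls, 104 and 110 CPM in RNAi mutants and 196, 213, 216 and 241 CPM in double mutants, with a log2 fold change of 1.01 ± 0.15 between the mutants (adjusted p = 0.00575). For the remaining 28 genes the RNAi mutants were within the control range or straddled 1 or both of its ends.

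The piRNA mutant was not used to choose these genes, and it was above every control for 37 of the 45, or 82.2%, against 17.8% of all genes tested. With 1 library, that has no replicate check. For ENSMUSG00000096808.1 the piRNA mutant was under the floor of 3 counts, at 0.0557 CPM against at most 0.0277 CPM in controls. Of the 37, 27 were also below every double mutant, and 10 were at or above the lowest double mutant: Gm14565, Gm14128, Ap1s3, Zfp937, Cldn34d, Gm14406, Slc18b1, Zdhhc15, Gm34045 and Gm13346. The piRNA mutant was within the control range for Gm15313, Gm47640, Gm30198, Cdc14b, Hmmr and Gm8935 and below it for Defa-ps8 and Adi1. Adi1, which encodes an enzyme of methionine salvage, had the widest spread among the more abundant genes: 41.1, 108, 64.4 and 74.2 CPM in double mutants, 9.82 and 6.13 CPM in RNAi mutants, 3.01 CPM in the piRNA mutant and 3.44 to 7.71 CPM in controls. It lies on chromosome 12 beyond the end of the interval.

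The sizes of the differences with and without RNAi can be set side by side, since the libraries of the pairs are different. Among the 26 genes outside the array with a mean of at least 1 CPM in RNAi mutants and in controls, the median ratio of double to RNAi mutants was 4.34, and the median ratio of the piRNA mutant to controls was 1.73. The ratio was the larger without RNAi for 26 of the 26. These genes were called on that ratio and not on the other, which favours this outcome, so the count is a description only. Over 14459 tested genes with controls at 1 CPM or more, the ratio of the piRNA mutant to controls had a median of 0.982 and quartiles of 0.84 and 1.13. Zfp937 had the highest ratio in the piRNA mutant, 2.96, beside 7.29 without RNAi, and for Psg20, at 2.02 without RNAi, the ratios were closest to each other.

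**Figure D3:**
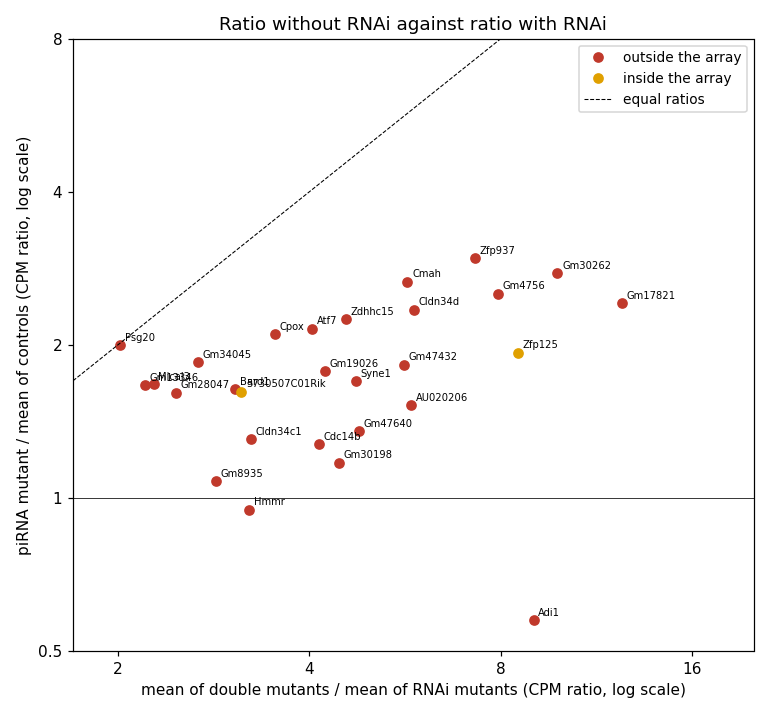
Each point is a called gene with at least 1 CPM in RNAi mutants and in controls, 26 outside the array in red and 2 inside it in yellow. The horizontal axis is the ratio of mean CPM in double to RNAi mutants and the vertical axis that of the piRNA mutant to the mean of controls, both on log scales. All 28 lie below the dashed line of equal ratios, and Adi1 and Hmmr lie below a ratio of 1 on the vertical axis.

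The largest fold changes were those of genes that RNAi mutants barely expressed. Gm43674 (chr3:21997678-21998468), a long noncoding RNA, was at 5.93, 5.33, 7.26 and 5.28 CPM in double mutants and had 0 counts in both RNAi mutants, so it was at least 56.4-fold higher against the mean floor of 3 counts per library. Controls had at most 0.1 CPM of it and the piRNA mutant 3.04 CPM. On an unplaced scaffold, ENSMUSG00000096808.1 had 0.655 to 1.55 CPM in double mutants and 0 counts in RNAi mutants, at least 9.65-fold higher by the same floor. Gm15313, Gm14565, Gm14128 and Gm13632 had 1 or 2 counts in both RNAi mutants together. Their count ratios were 89.5 (95% exact interval 24.6 to 741), 93.4 (16.6 to 3706), 63.2 (17.3 to 524) and 52.9 (14.5 to 439), and these intervals cover counting error only. Gm14565 and Gm14128 were also high in the piRNA mutant, at 3.54 and 3.95 CPM, above the highest double mutant of 2.88 and 2.95 CPM, while controls had at most 0.116 and 0.233 CPM. Defa-ps8, whose transcript is printed above beside Gm15313, was at 2.99, 3.61, 3.79 and 2.71 CPM in double mutants and at 0 and 0.109 CPM in RNAi mutants.

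Vmn2r90, a vomeronasal pheromone receptor gene, had 8.49, 9.30, 6.63 and 7.69 CPM in double mutants, 0.649 and 0.0543 CPM in RNAi mutants and at most 0.333 CPM in controls. Its RNAi mutants differed more from each other than most, and the adjusted p was 0.0268. Gm20300 and Gm48155, both long noncoding, rose from at most 0.216 CPM to 1.58 to 5.22 CPM, with adjusted p of 0.0402 and 0.0322. The one gene that was lower, Gm18765, a processed pseudogene with 4 near copies, was at 69.2, 70.9, 58.2 and 64.5 CPM in double mutants and at 114 and 125 CPM in RNAi mutants. It fell by 0.86 on the log2 scale with an SE of 0.16 (adjusted p = 0.0416), and controls were at 122 to 183 CPM.

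Numbered zinc finger genes, many of which encode KRAB-type repressors of retrotransposons, gave 3 calls outside the array. Zfp937 was at 43.2, 47.5, 44.5 and 65.9 CPM in double mutants, 9.25 and 4.53 CPM in RNAi mutants and 44.7 CPM in the piRNA mutant, with controls at 9.08 to 22.2 CPM (log2 fold change 2.88 ± 0.38, adjusted p = 0.00248). Zfp369 was at 5.47 to 10.7 CPM against 0.476 and 0.651 CPM (3.60 ± 0.49), and Zfp65 at 1.93 to 2.91 CPM against 0.346 and 0.0814 CPM (3.64 ± 0.56). Among all 333 numbered zinc finger genes tested, 4 were called higher (1.2%, with Zfp125 inside the array, against 0.31% of all genes) and none lower. An unadjusted p under 0.05 was found for 18 (5.41%, against 4.78% of all genes), and the median log2 fold change was 0.06 beside 0.01 over all genes. DESeq2 called 7 of them higher.

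Only 7 of the 45 genes lay within 250 kb of another, in 3 groups: Gm47432 with Gm17821, Atf7 with Gm28047, and 3 genes in a zinc finger cluster on chromosome 2 (chr2:150218073-150522300). The last holds Zfp937, the pseudogene Gm14128 and 3300002I08Rik, which was at 3.75 to 4.81 CPM in double mutants and 0.692 and 0.895 CPM in RNAi mutants (log2 fold change 2.39 ± 0.37). Zfp937 and 3300002I08Rik share a stretch of 202 bases at 95% identity or more. Of the 10 genes tested there, 3 passed. Gm14124 had a log2 fold change of 2.19 (adjusted p = 0.0998) and Gm14127 of 2.62 (adjusted p = 0.0776), and the more abundant Zfp442 and Zfp345 had 0.37 and 0.21 (adjusted p = 0.9997 for both). Gm21994 was at 1.99 to 2.53 CPM in double mutants and 0.951 and 1.25 CPM in RNAi mutants, and Gm10130 at 1.15 to 1.75 CPM and 0.519 and 0.57 CPM, with log2 fold changes of 0.997 and 1.36 (adjusted p = 0.429 and 0.438). Every double mutant was above both RNAi mutants for each of them, and the fold change was negative for 1 of the 10, Gm14121 (-0.21).

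The 45 genes were 24 protein-coding, 13 long noncoding, 6 pseudogenes, 1 model still to be tested experimentally and 1 not in the annotation used. Long noncoding RNAs were 28.9% of them and 13.6% of all genes tested, and protein-coding genes 53.3% and 71.5%. Counts were whole in no library for 9 of the 45 (20%, against 10.4% of the genes tested outside the array) and whole in all for 4 (8.89% against 16.6%). A gene with exons on the other strand overlapped 2 of the 45 (4.44% against 24.2%), namely Mical3 and Gm13346. Stretches of 100 bases or more at 95% identity with transcripts of other genes were found for 30 of the 45 called genes outside the array that have a transcript, Gm18765 among them, and none of these stretches was shared with a called gene of the array. Of the 30, 8 shared such a stretch with another called gene: Gm15313 with Defa-ps8, Zfp937 with 3300002I08Rik, Atf7 with Gm28047, and Gm14444 with Gm14406. Gm14444 and Gm14406 share 1281 bases, and neither had a whole count in any library, so their calls are not separate. The same shares over all genes tested were not computed, so the counts describe these genes only. RefSeq promoters (GRCm38.p6, 250 bases before to 50 after the start) matched 24 of the genes with 35 sequences. Of these, 14.3% held TATAAA on either strand, against 13.6% of all promoters, and the median number of CG pairs was 7 in both.

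Inside the array, 20 of 67 genes tested (29.9%) were higher and none was lower by edgeR, with 5 lower at an unadjusted p under 0.05. These are chiefly pseudogenes and noncoding models of the duplicated units, and 13 of the 20 are annotated as pseudogenes. Summed over the 20, the level was 155, 158, 150 and 180 CPM in double mutants, 14.5 and 17.1 CPM in RNAi mutants, 63.7 CPM in the piRNA mutant and 13.1 to 22.2 CPM in controls. The RNAi mutants thus lay within the controls and the piRNA mutant lay between them and the double mutants. The sum is over genes called on this difference and is a description. The piRNA mutant was above every control for 20 of the 20, against 58.2% of all genes tested in the interval.

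Summed over all genes of the interval, called or not, the level was 900, 837, 837 and 901 CPM in double mutants and 735 and 804 CPM in RNAi mutants, a ratio of 1.13 (exact two-sided permutation p = 0.133, the smallest that 4 against 2 libraries allow). Controls were at 764 to 843 CPM. That total is mostly Adam17, Ywhaq, Asap2 and Cpsf3, genes between the duplicated units that did not pass the test.

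**Figure D4:**
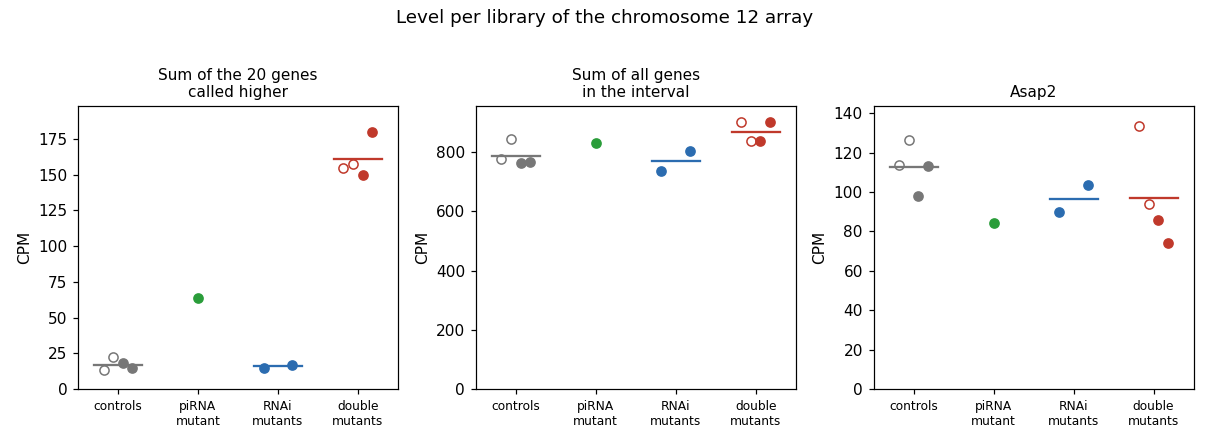
Points are libraries, lines are group means and open points are older animals; the vertical axes are CPM from 0. The left panel sums the 20 genes called higher in the interval, at 150 to 180 CPM in double mutants and under 25 CPM in RNAi mutants and controls; the middle panel sums all genes of the interval, and the right panel shows Asap2, whose groups overlap.

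Among the members of the array, Gm38699 (chr12:23780857-23784131) was at 23.1, 19.1, 17.8 and 21.8 CPM in double mutants and at 0.216 and 0.136 CPM in RNAi mutants (log2 fold change 6.89 ± 0.40, adjusted p = 1.47e-06). Gm49377 (chr12:22584129-22587635) was at 15.5, 13.2, 14.2 and 16.3 CPM against 0.0865 and 0.163 CPM (6.77 ± 0.34), and Gm10330 (chr12:23778912-23780265) at 19.1, 14.0, 14.7 and 14.5 CPM against 0.0865 and 0.109 CPM (7.24 ± 0.54). Gm47437, the exon copy printed above, had 2.87 to 4.18 CPM in double mutants and 1 count in both RNAi mutants together, a count ratio of 219 (95% exact interval 39.0 to 8647, counting error only). AC163633.1 had 0 counts in all RNAi mutants and controls, was at least 19.8-fold higher in double mutants against the mean floor of 3 counts per library, and was at 1.28 CPM in the piRNA mutant. For the more abundant 5730507C01Rik the change was smaller, 28.3 to 37.1 CPM against 9.30 and 11.9 CPM (1.64 ± 0.28, adjusted p = 0.0229). Of the 20, 11 had no whole count in any library, so how the reads were divided sets which copy a value is attached to.

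Few members of the lists from the pathways concerned passed, and each list is to be read beside a median of 0.01, calls of 0.31% higher and an unadjusted p under 0.05 for 4.78% over all genes tested. None of 29 piRNA pathway genes tested passed (median -0.10, 2 at an unadjusted p under 0.05, none by DESeq2), nor did any of 17 genes of RNAi and microRNA machinery (median -0.01, none at an unadjusted p under 0.05, none by DESeq2). Of 196 genes tested that the study lists as potential siRNA targets, none passed, 6 had an unadjusted p under 0.05, DESeq2 called none, and the median was -0.03. None of 38 genes of DNA methylation and heterochromatin and none of 38 of oocyte growth and maternal effect passed, with medians of 0.00 and -0.03, none at an unadjusted p under 0.05 and none by DESeq2. Of 27 genes of the DNA damage checkpoint and oocyte death, 1 was higher, Bard1, and the median was -0.06. Of 35 interferon and dsRNA-sensing genes none passed in edgeR, 4 had an unadjusted p under 0.05 (Eif2ak2, which encodes the dsRNA-activated kinase PKR, Oas3, Igtp and Irgm2, all with positive fold changes), DESeq2 called 3 higher, and the median was 0.18. Their adjusted p ran from 0.105 for Igtp to 0.524 for Irgm2.

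Other gene families gave few calls, beside the same 0.31% and 4.78% of all genes tested. In the claudin 34 family 2 of 7 tested were higher in edgeR and in DESeq2, Cldn34d and Cldn34c1 (7.66, 7.38, 7.55 and 10.4 CPM against 2.38 and 2.71 CPM), 4 had an unadjusted p under 0.05, and the median was 1.40. Cldn34c1 has 3 near copies, of which Cldn34c2 and Cldn34c3 had log2 fold changes of 1.40 and 1.79 without passing (adjusted p = 0.598 and 0.755). How far reads can be assigned among these copies was not tested. In the pregnancy-specific glycoprotein family 1 of 10 was higher, Psg20, as in DESeq2, 4 had an unadjusted p under 0.05, and the median was 0.90. Of 161 chemoreceptor genes tested 1 was higher, Vmn2r90, 12 (7.45%) had an unadjusted p under 0.05, DESeq2 called 4 higher and 1 lower, and the median was 0.29. None passed among 16 Fbxw genes (median 0.06), 5 Obox genes (0.17), 4 oogenesins (0.18) and 16 Nlrp genes (-0.08), where 1, 1, 0 and 2 had an unadjusted p under 0.05 and DESeq2 called 1, 1, 0 and 0.

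Markers of other ovarian cells gave no call in edgeR. All 7 theca and stroma markers tested had positive fold changes, with a median of 1.56 (0.94 with younger double mutants only), as had 8 of 11 blood and immune markers (median 0.41), 8 of 18 granulosa markers (median -0.01) and 1 of 4 endothelial markers (median -0.20). Summed granulosa markers ran from 240 to 330 CPM in double mutants and from 265 to 276 CPM in RNAi mutants, blood and immune markers from 110 to 156 and from 123 to 132 CPM, theca and stroma markers from 6.48 to 17.95 and from 4.42 to 8.61 CPM, and endothelial markers from 64.3 to 81.1 and from 85.8 to 101 CPM. Of the 22 blood and immune markers 2 were at 0 in all double and RNAi mutants. Genes at an unadjusted p under 0.05 numbered 1 of 18 granulosa, 1 of 7 theca and stroma, 3 of 11 blood and immune and 0 of 4 endothelial markers, and DESeq2 called 1 immune marker. The 39 oocyte genes summed to 32498 to 36744 CPM in double and 34441 to 35310 CPM in RNAi mutants. The part of these markers in the results above was not tested.

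Age differed between the groups, since 2 of the 4 double mutants were older and both RNAi mutants younger. Between older and younger double mutants edgeR called 0 genes at an adjusted p under 0.05 (1349 at an unadjusted p under 0.05, smallest adjusted p 0.162), whereas DESeq2 called 79. With the younger double mutants alone, 37 of the 45 genes outside the array passed, with the older ones alone 36 passed, and 32 passed in both. The median log2 fold change of the 45 was 2.42 with the younger and 2.64 with the older animals.

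The second RNAi mutant library weighed most on the counts. Without it 25 genes were higher in all and 16 outside the array, of which 15 were among the 45, and 9 were higher inside it. Without the other RNAi mutant 54 were higher in all and 12 inside the array, and 26 of the 45 were among them. The lower gene, Gm18765, passed in none of the 6 fits without a library, where its log2 fold change ran from -0.91 to -0.79. The 15 genes outside the array that passed under each of 11 alternative fits and each of 6 fits without a library were Gm43674, Gm15313, Defa-ps8, Gm17821, Gm30262, Gm4756, AU020206, Cmah, Gm47432, Syne1, Gm30198, Gm19026, Cdc14b, Atf7 and Hmmr. Of these, Cmah, which encodes the hydroxylase that makes N-glycolylneuraminic acid, was at 18.2, 18.1, 15.6 and 13.1 CPM against 3.55 and 2.14 CPM, and Gm19026, a pseudogene, at 21.6, 20.9, 20.5 and 17.7 CPM against 5.62 and 3.91 CPM. Gm4756 was at 45.4, 22.6, 35.3 and 22.8 CPM against 4.63 and 3.34 CPM. Among those that passed less often, Zdhhc15, Mical3, Slc18b1 and Gm34068 had adjusted p of 0.0413, 0.0406, 0.0403 and 0.0473.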

How the data were processed

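RNA of GV oocytes was made into libraries with the Ovation V2 kit and sequenced as unstranded pairs. The authors aligned reads to mm10 with STAR 2.5.3a, keeping reads with many places, and counted them with featureCounts over GENCODE M15, dividing each read among its places and overlapping genes, so the deposited values are estimated counts that need not be whole. Names and types came from GENCODE M21 of the same build (52403 of 52636 genes matched). The deposited counts were rounded and fitted in edgeR 4.0.16 with TMM and 1 term per genotype over the 11 paired-end libraries; filterByExpr was set on genotypes with replicates and left 20989 genes, and Benjamini-Hochberg adjusted p under 0.05 made a call. CPM are on the TMM-scaled library. Alternatives included DESeq2 1.42.0. The 11 single-end samples entered no fit. The scripts were tested on simulated data.

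A gene was inside the array if it overlapped the interval. Whole means within 0.005 of a whole number. Shared sequence was found with blastn 2.17.0. Named genes were the 12 largest rises and 8 largest falls outside the interval and the 5 largest rises inside it, among calls with a mean of at least 1 CPM and no overlap, with Dicer1, Piwil2, Gm17821, Gm47432 and called list members; as the calls were few, the others were named after their values were seen. Intervals and floors cover counting error only. The members, lists and tests were chosen with earlier results of these data known, and the list of potential siRNA targets is the study's own. The repeat content of exons was not analysed here.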

Additional observations from a re-analysis of the deposited data

Results flagged for a closer look

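In groups of 4, a library was noted where its gap to the next exceeded Dixon's 95% critical value; of 58 groups examined 8 met this, and chance gives about 1 in 20. In double mutants these were Gm10330, with replicate 1o at 19.1 CPM, and Zfp369 and Cldn34c1, with replicate 2 at 10.7 and 10.4 CPM. In controls they were Zfp125, with replicate 1o at 2.56 CPM, Zfp65, with 2o at 0.267 CPM, Gm14128, with 3 at 0.233 CPM, ENSMUSG00000096808.1, with 2 at 0.0277 CPM and the others at 0, and the sum over the chromosome 12 interval, with 2o at 843 CPM. In each double mutant case the other libraries were still above both RNAi mutants.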

How the results depend on the processing

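DESeq2 called 155 genes higher and 15 lower (129 and 14 outside the array), and no filter on low counts 131 and 16 (105 and 14). The lower count, 1 in the main analysis, was 2 with a filter at 1 CPM or an age term, 3 with only double and RNAi mutants, 4 with the older double mutants only, 0 with a Gm42418 term and 0 with at least 1 log2 unit, in all and outside the array, and 2 in all in the libraries with Gm42418 over 1000 CPM, an alternative chosen after seeing the data. With the replicate block, the counts were 49 higher (33 outside) and 3 lower. Deviations from the group means of same-numbered libraries correlated at -0.068 and -0.059 between double and RNAi mutants. The values were 0.135, 0.028 and 0.177 between double mutants and controls and -0.069 between RNAi mutants and controls. Not every pair was over 0.1, and the main fit takes the samples to share only a number. The 2 RNAi mutants deviate from their mean as mirror images, so these values cannot decide whether same-numbered libraries were paired. Leaving out 1 library gave 25 to 60 higher, 0 to 2 lower, 16 to 42 higher and 0 to 2 lower outside, and 9 to 21 higher inside. DESeq2 called 79 genes between older and younger double mutants. Causes were not tested. No called value reversed, and over the 26 called named genes and all settings 67 values lost the call and 375 kept it. With younger double mutants only, the medians of the interferon list (0.08) and of the endothelial markers (0.08) moved by more than the SD over double mutants.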

Other observations

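The single-end run holds other Dicer-SOM/SOM oocytes (n = 3) and wild-type oocytes (n = 3) that entered no comparison above. Of the 12 genes outside the array for which both RNAi mutants were below every control, 8 had all SOM/SOM libraries below all wild types in that run (Gm13632, Cldn34d, AU020206, 3300002I08Rik, Slc18b1, Gm30198, Gm8935 and Gm13346), against 19.4% of the genes tested. Cldn34d was at 8.25, 9.33 and 9.64 CPM in wild types and at 3.67, 2.48 and 2.16 CPM in SOM/SOM oocytes. Slc18b1 was at 2.91, 3.93 and 3.86 CPM and at 0.712, 0.11 and 0.309 CPM. Of the 5 genes for which both RNAi mutants were above every control, 2 had all SOM/SOM libraries above all wild types, Hmmr and Cldn34c1, against 22.0% of the genes tested, and Hmmr was at 14.1, 13.3 and 16.9 CPM in wild types and at 32.5, 31.9 and 25.2 CPM in SOM/SOM oocytes. CPM in that run are per total count of each library.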
